A study of Nicotiana benthamiana with 9 samples.

Results

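The transcripts described here encode 6 small subunits of photosystem II: psbE, psbF, psbL and psbJ, which form 1 operon, and psbK and psbI, which lie together elsewhere on the plastid genome. They were taken by gene name from the count table and make up 6 of its 106 rows, of which 105 are plastid genes (80 of them protein-coding) and 1 is the transgene of the RNA editing factor dPPRe-rpl2. Leaves of wild-type Nicotiana benthamiana transiently expressed the silencing suppressor P19 alone, or P19 with dPPRe-rpl2 from the vector pGWB2 or from pMDC32, in 3 libraries for each group, so that all leaves carried P19. By their titles, the first replicates were sampled 2 days post infiltration (dpi) and replicates 2 and 3 at 3 dpi, while the series text gives 3 dpi for all. The labelled day and the replicate number therefore cannot be told apart. The series text calls the samples biological replicates, and nothing in the labels says whether they came from separate plants, so that p-values measure the spread between these samples, which may be technical. A transient assay covers a patch of leaf in which not every cell need express the construct.

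Photosystem II is the complex of the thylakoid membrane that oxidises water. Its large core proteins bind the pigments, and around them sit single-helix proteins such as the ones described here. The psbE and psbF products bind 1 haem between them as cytochrome b559, without which the complex does not assemble, and the psbL and psbJ products are small subunits near the plastoquinone side. PsbK lies beside the antenna protein CP43, and PsbI beside the D1 protein. In tobacco the 4 genes of the psbE operon are read as a single message, and the start codon of psbL is made there by RNA editing, which read counts do not show.

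On the plastid sequence of the table, of a build the sources used here do not give, the operon ran along the minus strand from psbE (66603 to 66854, 252 nt) through psbF (66474 to 66593, 120 nt) and psbL (66335 to 66451, 117 nt) to psbJ (66088 to 66210, 123 nt). The genes were separated by 9 nt between psbE and psbF, 22 nt between psbF and psbL and 124 nt between psbL and psbJ. On the plus strand, psbK (7759 to 7944, 186 nt) was followed after 376 nt by psbI (8321 to 8431, 111 nt). Each row spans a coding region without introns, and 0 other rows overlap any of the 6. The nearest rows beside the operon were petA (1046 nt away) and petL (1153 nt away), both on the other strand, and those beside psbK and psbI were trnQ (345 nt away) and atpA (2123 nt away), also on the other strand.

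Libraries held 32457135 to 44392760 counted reads. The psbA transcript took 44.0% to 61.1% of them and rbcL 10.4% to 17.1%, as the 2 most abundant protein-coding rows, as is usual for plastids of green leaf; markers of other cell types are nuclear and were not analysed here. The transgene held 53090 to 359902 reads in the editor libraries and 0, 11 and 4 in P19 replicates 1 to 3. P19 replicate 1 stood apart: psbA took 61.1% of its reads against at most 52.6% elsewhere, and its TMM factor (the scaling factor that sets libraries to a common composition) was 0.742 against 0.956 to 1.09. Differences from P19 are therefore given with and without this library, except for the contrast of the editor effect between labelled days, which could not be fitted without it. In bulk leaf tissue, fewer cells of a type and less RNA per cell cannot be told apart.

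The 6 transcripts were among the most abundant of the plastid for their length. Levels between genes were compared as CPM per kilobase, where CPM are counts scaled to a library of 1000000 after TMM and the kilobases are those of the row. Averaged over the 9 libraries, psbL stood at 70537 ± 14954 and psbF at 68558 ± 14914 CPM per kilobase (SD, n = 9), ranks 3 and 4 of the 80 protein-coding rows after psbA (477148) and rbcL (104537). psbJ (42717 ± 8361) and psbE (42051 ± 8871) followed at ranks 5 and 6, psbI (34672 ± 9657) at rank 8 and psbK (28740 ± 8695) at rank 9 (SD, n = 9 each). Another short photosystem II transcript, psbM, held rank 7 at 35476 CPM per kilobase.

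The order was nearly the same in every library. psbL ranked 2 or 3, psbF 3 or 4, psbJ 5 or 6, psbE 5 to 7, psbI 7 or 8 and psbK 8 to 10. Within a library psbL stood above psbF per length in all 9, by 1.01 to 1.06 times, while its read counts were 0.983 to 1.03 times those of psbF. Per length psbJ stood at 0.981 to 1.06 times psbE, above it in some libraries and below it in others. A read can touch a short gene without lying inside it, so that a level per length can overstate short genes. With 100 nt added to every length, psbL fell to 38032 and psbE to 30105 CPM per kilobase, and psbE moved ahead of psbJ (23561) and psbK (18691) ahead of psbI (18240). Within a library psbL then stood at 0.996 (pMDC32 replicate 2) to 1.05 times psbF. The 6 transcripts then held ranks 3 to 8. The 100 nt were a set value, and no other was tried. By CPM without regard to length, median ranks over the libraries ran from 8 (psbE) to 21 (psbI).

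**Figure D1:**
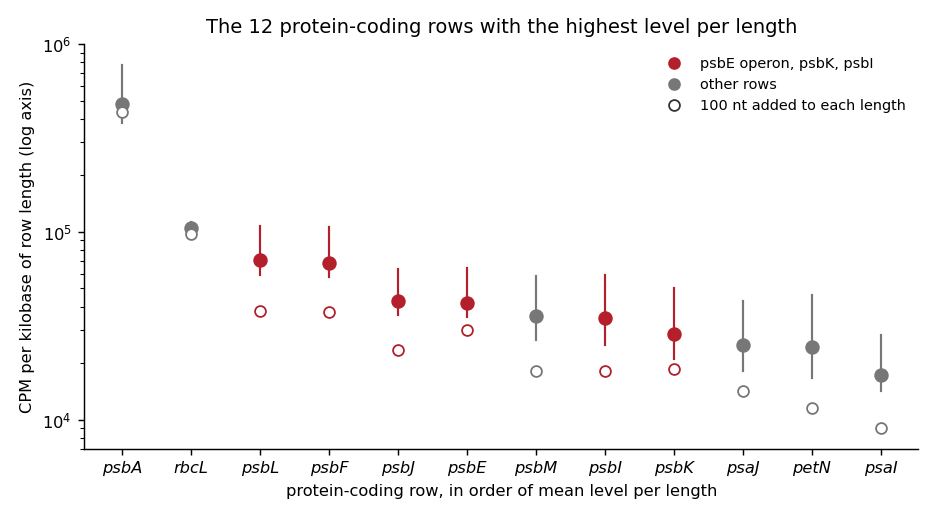
Level per length of the 12 protein-coding rows with the highest mean, in CPM per kilobase of row length on a log axis. Filled points are means over the 9 libraries, lines run from the lowest to the highest library, and open points are means with 100 nt added to each length. psbL, psbF, psbJ, psbE, psbI and psbK lie between ranks 3 and 9, below psbA and rbcL.

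Levels of psbE, for the alpha subunit of cytochrome b559, were similar in 8 libraries and higher in the ninth. In P19 leaves psbE stood at 16249, 8828 and 10860 CPM in replicates 1 to 3. With pGWB2 it stood at 9283, 10693 and 10017 CPM, and with pMDC32 at 9189, 9713 and 10540 CPM. P19 replicate 1 held the highest level, and each editor library lay between the lowest and the highest P19 library.

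psbF, for the beta subunit of cytochrome b559, followed the same course. It stood at 12764, 6869 and 8367 CPM in P19 leaves, at 7220, 8405 and 7914 CPM with pGWB2 and at 7163, 7296 and 8043 CPM with pMDC32. All 3 groups overlapped, and only P19 replicate 1 lay outside the range of 6869 to 8405 CPM of the other 8 libraries.

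The transcripts of the downstream genes psbL and psbJ were again highest in P19 replicate 1. psbL stood at 12625, 6923 and 8397 CPM in P19 leaves, at 7342, 8559 and 7836 CPM with pGWB2 and at 7107, 7169 and 8319 CPM with pMDC32. psbJ, the gene farthest from the start of the operon, stood at 7778, 4432 and 5378 CPM in P19 leaves, at 4699, 5551 and 4888 CPM with pGWB2 and at 4519, 4690 and 5353 CPM with pMDC32. The editor groups lay inside the range of the P19 group for both transcripts.

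psbK and psbI spread more widely than the operon. psbK stood at 9371, 3918 and 4900 CPM in P19 leaves, at 5583, 5397 and 4410 CPM with pGWB2 and at 4312, 4681 and 5539 CPM with pMDC32. psbI stood at 6518, 2769 and 3612 CPM in P19 leaves, at 3859, 3867 and 3385 CPM with pGWB2 and at 3216, 3398 and 4013 CPM with pMDC32. P19 held both the highest library (replicate 1) and the lowest (replicate 2) for psbK and psbI. The highest P19 library was 2.39 times the lowest for psbK and 1.84 times for psbE.

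**Figure D2:**
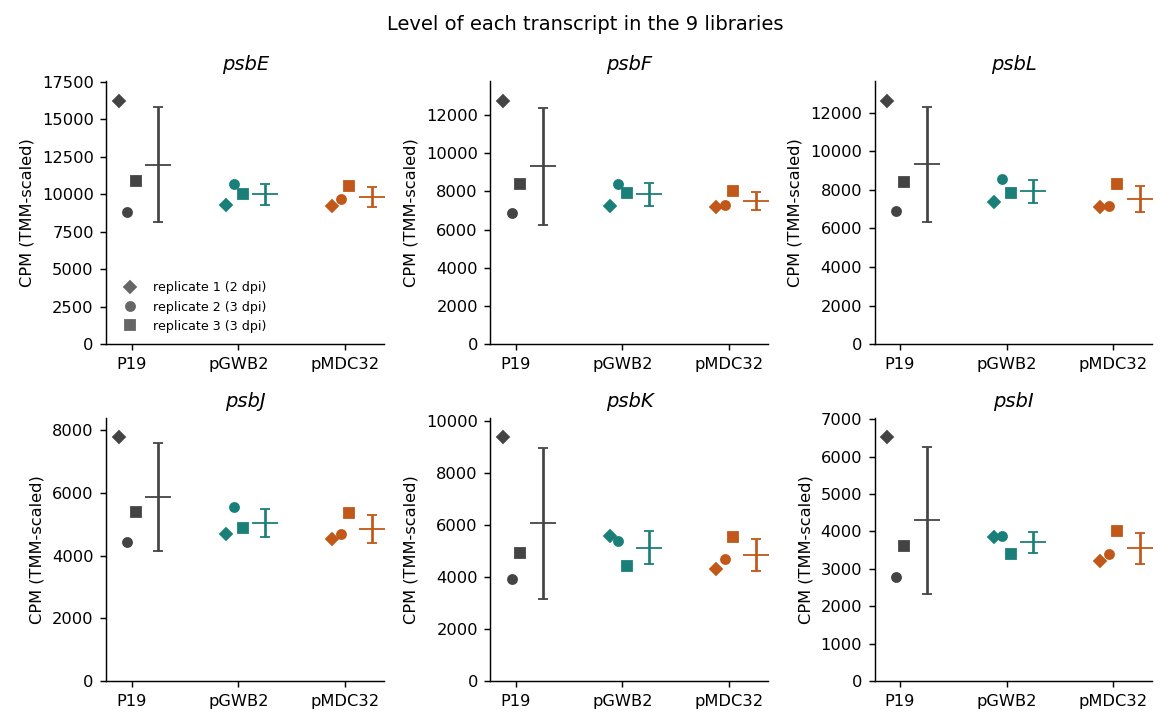
TMM-scaled CPM of the 6 transcripts in the 9 libraries, with 1 point for each library and its replicate number given by the symbol. Horizontal marks with bars are the group mean and SD (n = 3). P19 replicate 1 is the highest point in each panel, and the remaining libraries overlap.

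Over the 6 editor libraries the operon transcripts and psbI varied less than the median plastid row, and psbK varied more. The SD of log2 CPM of the 6 transcripts ran from 0.0914 (psbE) to 0.171 (psbK). Its median was 0.116 against 0.150 over all 105 plastid rows. In P19 leaves the median SD was 0.452 for the 6 transcripts and 0.359 over all plastid rows. Counting error was small beside this: each value rests on 105008 to 478117 reads, and the Wilson interval at 95% of a transcript's share of counts was at most ± 0.604% of the share, an interval that covers counting error only.

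The 4 genes of the operon kept a nearly constant proportion to each other in all 9 libraries. For each psbE read there were 0.776 ± 0.0124 psbF reads, 0.779 ± 0.0176 psbL reads and 0.497 ± 0.0131 psbJ reads (SD, n = 9 each). The psbF to psbE ratio ran from 0.751 (pMDC32 replicate 2) to 0.790 (pGWB2 replicate 3). That of psbL to psbE ran from 0.738 (pMDC32 replicate 2) to 0.800 (pGWB2 replicate 2), and that of psbJ to psbE from 0.479 (P19 replicate 1) to 0.519 (pGWB2 replicate 2). P19 replicate 1, in which the level of all 4 was highest, had ratios of 0.786 for psbF and 0.777 for psbL, inside the range of the other libraries. Its psbJ ratio of 0.479 lay below the 0.483 to 0.519 of the other 8.

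By group the proportions overlapped. The psbF to psbE ratio was 0.778 ± 0.00752 for P19, 0.785 ± 0.00626 for pGWB2 and 0.765 ± 0.0143 for pMDC32 (SD, n = 3 each). The psbJ to psbE ratio was 0.492 ± 0.0120, 0.504 ± 0.0157 and 0.494 ± 0.0127 in the same order. Per nucleotide of row length, psbF and psbL stood at 1.63 and 1.68 times psbE and psbJ at 1.02 times. With 100 nt added to each length these became 1.24, 1.26 and 0.784. How reads at gene ends were counted is not stated in the sources used here, and its part was not tested.

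Over all 3081 pairs of protein-coding rows (rps12, a trans-spliced gene, left out), the smallest SD of the log2 ratio over the 9 libraries was that of psbE and psbF, 0.0232. psbF with psbL (0.0244) and psbL with psbJ (0.0267) came next, and all 6 pairs within the operon were among the 8 smallest. The median over all pairs was 0.333, and that over 59 adjacent pairs on the same strand was 0.137. Without P19 replicate 1 the 6 operon pairs were among the 7 smallest. The counting SE was at most 0.00451 for the log2 ratios to psbE and between neighbours of the operon, below each of their SDs. Genes 9 or 22 nt apart, or 124 nt apart where the fragment is long enough, can be touched by the same fragment. Whether such reads were counted for each gene, for 1 or for none was not stated in the labels. The part of such reads in these ratios was not tested.

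psbK and psbI also moved together, although 376 nt lie between them. The psbI to psbK ratio was 0.723 ± 0.0245 (SD, n = 9) and ran from 0.691 (pGWB2 replicate 1) to 0.768 (pGWB2 replicate 3). Its log2 SD of 0.0486 was the tenth smallest of the 3081 pairs. Per nucleotide psbI stood at 1.21 times psbK, and at 0.981 times with 100 nt added to each length.

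Between the operon and the psbK-psbI pair the proportion was looser. There were 0.577, 0.444 and 0.451 psbK reads for each psbE read in P19 replicates 1 to 3, 0.601, 0.505 and 0.440 with pGWB2, and 0.469, 0.482 and 0.526 with pMDC32. P19 replicate 1 and pGWB2 replicate 1, both labelled 2 dpi, had the highest ratios, but pMDC32 replicate 1, labelled the same, lay among the rest. The SD of this log2 ratio, 0.164, was 317th of the 3081 pairs. For psbI with the operon genes the SD was smaller, from 0.128 (psbL, 150th) to 0.134 (psbJ, 177th).

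**Figure D3:**
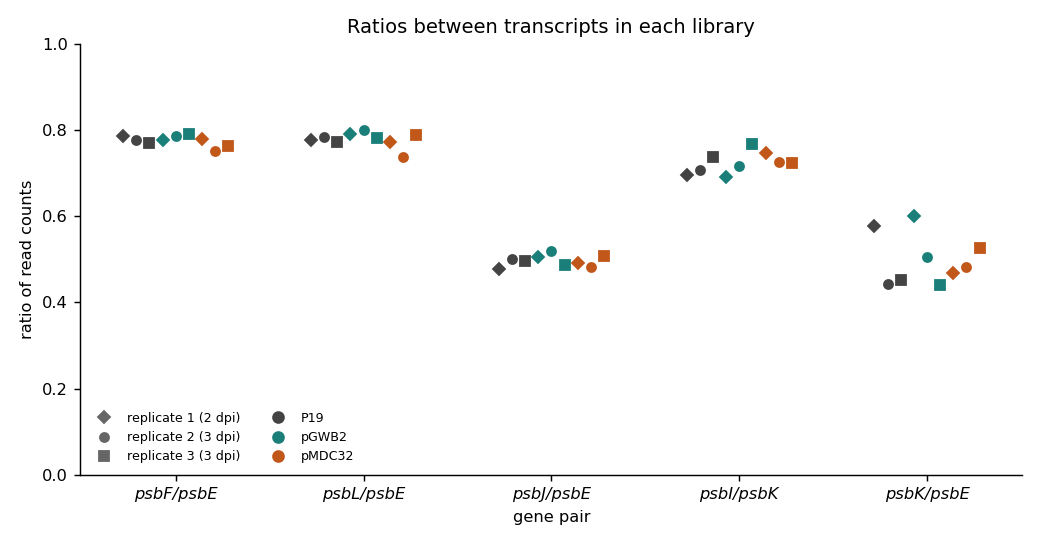
Ratios of read counts between 5 pairs of transcripts in each library, with the group given by colour and the replicate by symbol. Ratios within the operon hold within narrow bands (psbF to psbE 0.751 to 0.790, psbL to psbE 0.738 to 0.800), while psbK to psbE runs from 0.440 to 0.601.

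The comparison of each vector with P19 asks whether the editing factor changed these transcripts. None of the 6 passed the test with pGWB2. Their mean levels were for psbE 9998 ± 705 CPM (pGWB2) and 11979 ± 3835 CPM (P19), and for psbK 5130 ± 631 and 6063 ± 2907 CPM (SD, n = 3 each). The log2 differences were -0.26 for psbE (SE 0.20), -0.25 for psbF (SE 0.21), -0.24 for psbL (SE 0.21), -0.22 for psbJ (SE 0.20), -0.24 for psbK (SE 0.29) and -0.22 for psbI (SE 0.28). In edgeR's quasi-likelihood test, adjusted by Benjamini-Hochberg over all 106 rows, 0 of the 6 had an adjusted p under 0.05 (lowest 0.639), beside 0.943% of all rows, a call that is the transgene alone. At an unadjusted p under 0.05, 0 of the 6 passed, and DESeq2 and limma-voom each called 0 of the 6.

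All 6 lay below P19, with a median of -0.24, where the median over all rows was -0.063 and 41.5% of rows lay above P19. The direction rested on P19 replicate 1: without it all 6 lay above P19, by 0.049 (psbE) to 0.25 (psbK). Within sequencing lane 4, which held the pGWB2 libraries and P19 replicates 2 and 3, psbE differed by 0.028 and psbK by 0.22 on the log2 scale, without a test.

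With pMDC32 none of the 6 passed either. Mean levels with pMDC32 were 9814 ± 681 CPM for psbE and 4844 ± 630 CPM for psbK (SD, n = 3 each). The log2 differences from P19 were -0.29 for psbE (SE 0.20), -0.32 for psbF (SE 0.21), -0.31 for psbL (SE 0.21), -0.27 for psbJ (SE 0.20), -0.32 for psbK (SE 0.29) and -0.28 for psbI (SE 0.28). In edgeR's quasi-likelihood test, 0 of the 6 had a Benjamini-Hochberg adjusted p under 0.05 (lowest 0.585), beside 0.943% of all rows, again the transgene. Unadjusted, 0 of the 6 passed, and DESeq2 and limma-voom called 0.

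The 95% interval of psbE ran from -0.74 to 0.17 and that of psbK from -0.98 to 0.33. Without P19 replicate 1 the 6 log2 differences turned to between 0.050 (psbL) and 0.23 (psbI). In lane 8, which held pMDC32 replicates 1 and 2 and, of P19, replicate 1 alone, they ran from -0.76 (psbJ) to -1.06 (psbK), without a test. The 2 comparisons share the P19 libraries, so that their like values are not independent of each other.

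Setting the vectors against each other takes the P19 level out of the difference. The P19 libraries still entered the fit, and with it the scaling and the estimate of error. The median of the 6 was -0.065 in this fit, -0.017 without P19 replicate 1 and -0.069 with only the groups compared. The 6 transcripts differed by -0.027 (psbE, 95% interval -0.48 to 0.43) to -0.083 (psbK, 95% interval -0.73 to 0.57) on the log2 scale, pMDC32 minus pGWB2. In edgeR's quasi-likelihood test, 0 of the 6 had a Benjamini-Hochberg adjusted p under 0.05 (each 0.998), beside 0% of all rows. Unadjusted, 0 of the 6 passed, and DESeq2 and limma-voom called 0. Each of the 6 intervals lies within 2-fold in either direction. All pGWB2 libraries came from lane 4 and no pMDC32 library did, so that lane and vector cannot be told apart.

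Pooling the 6 editor libraries against the 3 P19 libraries gave smaller errors than either vector alone. The log2 differences were -0.27 for psbE (SE 0.16, 95% interval -0.64 to 0.088), -0.28 for psbF, -0.27 for psbL, -0.24 for psbJ, -0.28 for psbK (SE 0.23, 95% interval -0.80 to 0.24) and -0.25 for psbI. In edgeR's quasi-likelihood test, 0 of the 6 had a Benjamini-Hochberg adjusted p under 0.05 (lowest 0.372), beside 0.943% of all rows. Unadjusted, 0 of the 6 passed, and DESeq2 and limma-voom called 0. The P19 libraries pulled in opposite directions. Without P19 replicate 2 the median of the 6 was -0.45. At an unadjusted p under 0.05, 6 of the 6 then passed, beside 41 of all rows, and 0 of the 6 were called after adjustment. Without P19 replicate 1 the values were 0.059 for psbE, 0.060 for psbF, 0.061 for psbL, 0.063 for psbJ, 0.23 for psbK and 0.23 for psbI.

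**Figure D4:**
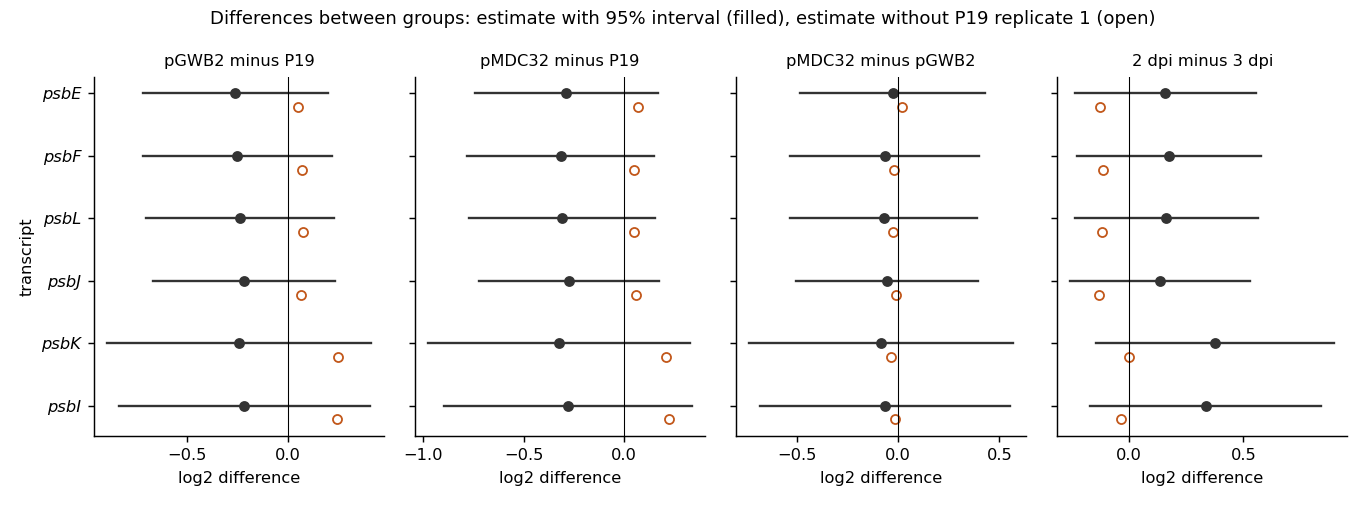
Log2 difference of each transcript in 4 comparisons. Filled points and lines are the estimate of edgeR and its 95% interval, and open points are the estimate without P19 replicate 1. In both comparisons with P19 each of the 6 estimates moves from below 0 to above 0 without that library, for psbE with pGWB2 from -0.26 to 0.049.

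In the pooled comparison 61 of all 106 rows lay below P19 (median -0.073). Of the other genes of the photosynthetic complexes, 0 passed the test in it. Of 9 other photosystem II genes, 7 lay below P19 (median -0.065), with psbM at -0.52 (SE 0.17) and psbA, for the D1 protein, at -0.40 (SE 0.16). Of 6 genes of the cytochrome b6f complex, which passes electrons on from photosystem II, 5 lay below P19 (median -0.25), with petL at -0.53 (SE 0.24) and petG at -0.35 (SE 0.21). Of 5 photosystem I genes, 3 lay below (median -0.29), with psaI at -0.32 and psaC at -0.31, and 2 above, the highest being psaA at 0.27. Leaving out P19 replicate 1, 0 of these passed either, and the medians of the 3 lists were 0.072, 0.087 and 0.11. Below P19 then lay 4 of 9, 1 of 6 and 0 of 5, beside 46 of all 106 rows. psbM then stood at -0.22, psbA at -0.061, petL at -0.13, petG at 0.085, psaI at 0.071 and psaC at 0.0037.

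By length, the 20 other protein-coding rows of at most 300 nt had a median of -0.052 with 11 below P19, and the 54 longer rows a median of 0.067 with 23 below. Among the neighbours on the map, petA stood at 0.094 (SE 0.13), petL at -0.53, trnQ at -0.27 (SE 0.18) and atpA of the ATP synthase at 0.32 (SE 0.17). Leaving out P19 replicate 1, the medians by length were 0.078 for the short rows and 0.038 for the longer ones, and the neighbours stood at 0.015 for petA, -0.13 for petL, 0.0087 for trnQ and 0.18 for atpA.

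P19 replicate 1 was examined by itself because the 6 transcripts were higher in it than in the other P19 libraries. Against the mean of replicates 2 and 3 on the log2 scale, its level was 1.66 times for psbE, 1.68 times for psbF, 1.66 times for psbL and 1.59 times for psbJ. For psbK it was 2.14 times and for psbI 2.06 times. With 1 library there is no replicate of this difference and no test. In log2 terms, psbK (1.10) and psbI (1.04) held ranks 2 and 3 of the 80 protein-coding rows after petN (1.27), while the 4 operon genes (0.67 to 0.75) held ranks 8, 10, 11 and 14.

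The size of the rise depended on the scaling. Scaled by library totals alone, in which psbA weighs most, the folds were 1.22 for psbE, 1.17 for psbJ and 1.57 for psbK, and P19 replicate 1 was then the highest library for 5 of the 6, psbJ being highest in pMDC32 replicate 3. Scaled by totals without psbA, they were 1.56 for psbE and 2.01 for psbK. As raw shares, the 4 operon genes took 3.67% of reads in P19 replicate 1 against 2.77% to 3.52% in the other libraries, and psbK with psbI took 1.18% against 0.718% to 1.04%. The median plastid row moved by -0.034 under TMM and by -0.48 under library totals.

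Many other short rows were high in this library, but not all. Of 10 other protein-coding rows of up to 150 nt, 7 were higher than in replicates 2 and 3 (median 0.75): petN (1.27), psaJ (1.03), petG (0.94), petL (0.87), psaI (0.85), psbM (0.65) and psbT (0.093). These encode small single-helix subunits of the cytochrome b6f complex (petN, petG, petL), of photosystem I (psaJ, psaI) and of photosystem II (psbM, psbT). The 3 remaining rows of that length were lower: rpl36 (-1.23), for a ribosomal protein, infA (-1.17), which resembles a translation initiation factor, and psbN (-0.24), for an assembly factor of photosystem II. For 10 other rows of 150 to 300 nt the median was 0.021 with 5 above, from rps19 (-1.35), for a ribosomal protein, to psaC (0.69), for an iron-sulphur subunit of photosystem I. The 54 rows longer than 300 nt had a median of -0.34, with 19 above.

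The same comparison in the editor groups gave smaller values. With pGWB2 replicate 1 lay -0.15 to -0.18 from replicates 2 and 3 for the 4 operon genes and 0.093 to 0.19 for psbI and psbK. With pMDC32 the 6 lay between -0.097 and -0.24. Editor libraries labelled 2 dpi thus did not share the rise of P19 replicate 1, which also differed from them in its psbA share (61.1% against 49.9% and 49.8%). The part of psbA share, row length and lane in the values of P19 replicate 1 was not tested.

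**Figure D5:**
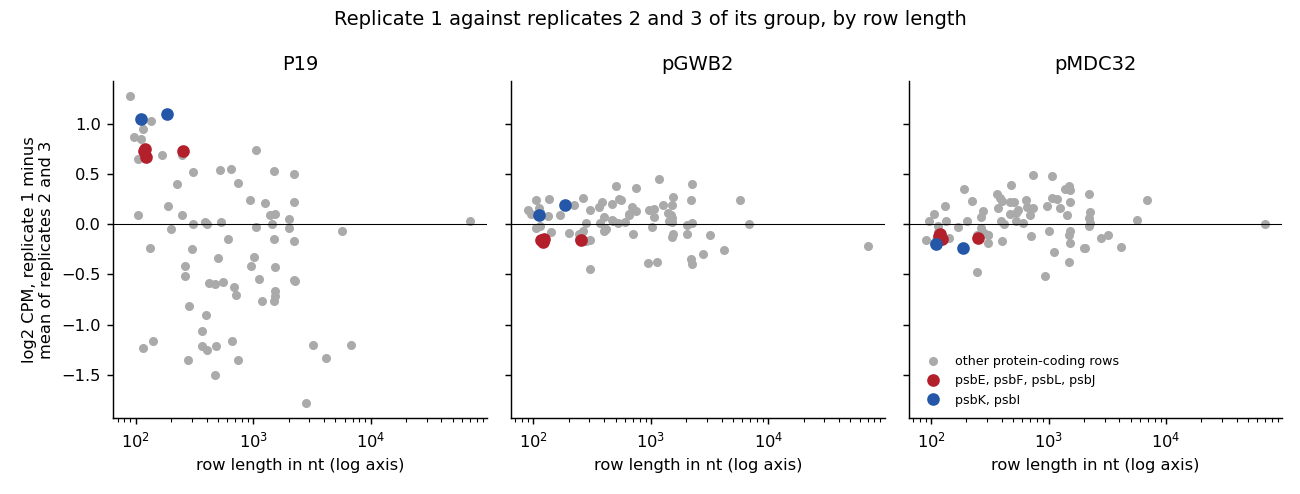
Log2 CPM of replicate 1 minus the mean of replicates 2 and 3 in each group, against row length in nt on a log axis, with 1 point for each of the 80 protein-coding rows. In P19 the psbE operon lies between 0.67 and 0.75 and psbK and psbI lie above 1; in the editor groups the 6 transcripts lie between -0.24 and 0.19.

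Across labelled days, with the group as covariate, none of the 6 passed. The log2 difference of 2 dpi minus 3 dpi was 0.16 for psbE (SE 0.17), 0.18 for psbF (SE 0.17), 0.16 for psbL (SE 0.17), 0.14 for psbJ (SE 0.17), 0.38 for psbK (SE 0.23) and 0.34 for psbI (SE 0.22). In edgeR's quasi-likelihood test, 0 of the 6 had a Benjamini-Hochberg adjusted p under 0.05 (lowest 0.322), beside 0.943% of all rows. Unadjusted, 0 of the 6 passed, and DESeq2 and limma-voom called 0. Without P19 replicate 1 the values were -0.13 for psbE, -0.11 for psbF, -0.12 for psbL, -0.13 for psbJ, -0.00033 for psbK and -0.032 for psbI, and these come from the editor groups, as P19 then has no library labelled 2 dpi.

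The contrast of the editor effect between labelled days rests on P19 replicate 1, the only P19 library at 2 dpi, so that it cannot tell the day from that library. At 2 dpi, psbE stood at 9283 and 9189 CPM in the editor libraries and at 16249 CPM in the 1 P19 library. At 3 dpi it ran from 9713 to 10693 CPM in 4 editor libraries, against 8828 and 10860 CPM in 2 P19 libraries. psbK stood at 5583 and 4312 CPM with the editor and 9371 CPM in P19 at 2 dpi, and from 4410 to 5539 CPM against 3918 and 4900 CPM at 3 dpi. The editor libraries lay below P19 at 2 dpi and overlapped it at 3 dpi.

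On the log2 scale, the 2 dpi effect of the editor less its 3 dpi effect came to -0.87 for psbE (SE 0.21), -0.88 for psbF (SE 0.22), -0.86 for psbL (SE 0.22), -0.82 for psbJ (SE 0.23), -1.11 for psbK (SE 0.27) and -1.09 for psbI (SE 0.26). In edgeR's quasi-likelihood test, 6 of the 6 had a Benjamini-Hochberg adjusted p under 0.05 (0.00624 to 0.0127), but 37.7% of all rows did as well, 17 rows down and 23 up (8 down and 41 up when scaled by library totals alone, 22 down and 17 up without the rRNA and tRNA rows). DESeq2 and limma-voom called these 6 as well, again beside many other rows. Over all rows, DESeq2 called 26 up and 23 down, and limma-voom called 24 up and 18 down. The calls of both tools rest on the same 1 P19 library at 2 dpi. Without pGWB2 replicate 1 the count fell to 0 of the 6 and 0 of all rows, with psbE at -0.92 and psbK at -1.39, and without pMDC32 replicate 1 it was 3 of the 6.

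Of the other rows in this contrast, 3 of 6 cytochrome b6f genes were called down (petN at -1.27, petG at -0.92 and petL at -0.80), 3 of 5 photosystem I genes were (psaC, psaJ at -0.88 and psaI at -0.84) and 1 of 9 other photosystem II genes was (psbA at -0.56). Of the 20 other short rows 7 were called down and 4 up, among them rps19 (1.42), rpl36 (1.22) and infA (1.07). Of the 54 longer rows 1 was called down and 18 up, atpA being at 0.93.

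With all libraries, the rows whose levels were most like those of the 6 were other short rows, and for the operon that likeness rested on P19 replicate 1. Over the 9 libraries, the mean log2 CPM of the operon correlated most with petG (Pearson r = 0.943, Spearman rho = 0.800), psaI (r = 0.937, rho = 0.717) and petN (r = 0.926, rho = 0.767) among 99 plastid rows. Without P19 replicate 1 these were 0.695, 0.583 and 0.615, and the first 3 places went to trnE (0.875), trnY (0.802) and trnD (0.797), a cluster of tRNA genes. The mean of psbK and psbI correlated most with petN (r = 0.988, rho = 0.967), psaI (r = 0.968, rho = 0.983) and petG (r = 0.967, rho = 0.833). Without P19 replicate 1, petN (0.945) stayed first and psaI (0.870) and petG (0.847) held ranks 3 and 5, with ndhD (0.902), for a subunit of the NDH complex, at rank 2.

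Without the 2 libraries farthest from the median, P19 replicates 1 and 2, the correlations of petG, psaI and petN with the operon were 0.590, 0.405 and 0.382 (ranks 13, 25 and 27). Those of petN, psaI and petG with psbK and psbI were 0.887, 0.808 and 0.816 (ranks 2, 4 and 3). First place went to trnY (0.929) for the operon and to ndhD (0.911), a row of 1503 nt, for psbK and psbI. The points share their libraries, depth and scaling, and these correlations are a description over 9 libraries. Among the 6 themselves, pairs within the operon correlated at 0.990 to 0.996 over the 9 libraries and at 0.958 to 0.987 over the 8, and psbK with psbI at 0.993 and 0.969. Pairs of an operon gene with psbK or psbI correlated at 0.910 to 0.944 over the 9 and at 0.547 to 0.752 over the 8.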

How the data were processed

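The authors deposited raw counts for each gene row in 9 libraries, with no normalization. Per the labels' protocols, ribosomal RNA was removed from leaf RNA and strand-specific libraries were built with dUTP. Tools in the submitters' processing notes are featureCounts 2.0.1, HISAT2 2.2.1, DESeq2 1.42.0, Trim Galore 0.6.10 and FastQC 0.12.1. The build, the strand setting and how reads with several targets were treated were not given in the sources used here. Plastid and transgene rows alone entered the totals, so differences are relative to other plastid transcripts, and a change of all plastid RNA would not show.

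Groups were compared on the deposited counts with edgeR 4.0.16 (R 4.3.3; TMM, filterByExpr, quasi-likelihood test, two-sided, Benjamini-Hochberg adjustment over 106 rows, threshold 0.05). SE values are the log2 difference divided by the square root of its F statistic. All 9 libraries entered 1 fit for the vectors, another for both vectors against P19, and others for the labelled day. DESeq2 1.42.0 and limma-voom (limma 3.58.1) were alternatives. Lanes were read from the column names. Values of other genes without P19 replicate 1 were added after seeing the data. Every replicate pair differed beyond counting noise (lowest chi-square divided by its degrees of freedom 1350).

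The members and lists were chosen with earlier results of these data known. Named besides the 6 were nearest rows on the map, the 3 rows most alike in level, and for each list the called members, or else those with the largest differences.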

Additional observations from a re-analysis of the deposited data

Results flagged for a closer look

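For all 6 transcripts the contrast of the editor effect between labelled days passed the test in edgeR, but its P19 arm at 2 dpi is P19 replicate 1 alone, so that the day and that library cannot be told apart. On the log2 scale, the 2 dpi effect less the 3 dpi effect came to -0.87 for psbE, -0.88 for psbF, -0.86 for psbL, -0.82 for psbJ, -1.11 for psbK and -1.09 for psbI, in a contrast that called 37.7% of all rows. Without pGWB2 replicate 1, 0 of the 6 and 0 of all rows were called. Leaving out pMDC32 replicate 1, 3 of the 6 were, where calls over all rows were 13 up and 7 down. No library of the 6 with the editor, or of the 6 labelled 3 dpi, stood far from the rest by Dixon's test in any of the 6 transcripts. Neither set holds P19 replicate 1, so that the test says nothing of that library. The P19 group of 3 libraries was not tested in this way.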

How the results depend on the processing

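No call on the 6 transcripts in the 5 comparisons without the interaction changed under any alternative run. At an unadjusted p under 0.05, for both vectors, 6 of the 6 passed without P19 replicate 2, beside 41 of all rows. With upper-quartile scaling 3 passed for both vectors, beside 20 of all rows. Without P19 replicate 2, 1 passed for each vector, beside 20 of all rows for pGWB2 and 26 for pMDC32. For day, 2 passed without pMDC32 replicate 1, beside 21 of all rows. DESeq2 called 2 of all rows for pGWB2, 2 for pMDC32, 4 for both vectors and 3 for day; library totals alone called 3 for day, and fitting only the groups compared called 1 between vectors. With each replicate left out in turn, calls over all rows ran from 0 to 3 for day and from 0 to 57 for the interaction, where calls among the 6 ran from 0 to 6. Without pMDC32 replicate 1 they were 3 of the 6 and 20 rows. With library totals alone 4 of the 6 passed for the interaction, psbL (-0.49) and psbJ (-0.45) not, where calls over all rows were 41 up and 8 down.

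Directions turned as follows on the log2 scale, and the cause was not tested. With library totals alone psbK (0.0039) and psbI (0.027) turned for pGWB2, psbI for pMDC32 (0.0019) and for both vectors (0.015), psbE between vectors (0.0090), and for day psbE (-0.051), psbF (-0.036), psbL (-0.047) and psbJ (-0.073). With the 3 dpi libraries alone psbE, psbF, psbL, psbJ, psbK and psbI stood at 0.091, 0.12, 0.12, 0.11, 0.17 and 0.20 for pGWB2, at 0.11, 0.077, 0.085, 0.10, 0.28 and 0.29 for pMDC32, and at 0.10, 0.097, 0.10, 0.11, 0.23 and 0.25 for both; between vectors psbE (0.017), psbK (0.11) and psbI (0.084) turned. Within lane 4 (chosen after seeing the data) pGWB2 gave 0.028, 0.047, 0.051, 0.044, 0.22 and 0.22.

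With each replicate left out, and in the same gene order, values ran for pGWB2 from -0.45 to 0.049, -0.44 to 0.069, -0.42 to 0.073, -0.40 to 0.067, -0.49 to 0.25 and -0.47 to 0.24. For pMDC32 they ran from -0.43 to 0.069, -0.46 to 0.051, -0.45 to 0.050, -0.40 to 0.059, -0.53 to 0.21 and -0.49 to 0.23. For both vectors they ran from -0.44 to 0.059, -0.45 to 0.060, -0.44 to 0.061, -0.40 to 0.063, -0.51 to 0.23 and -0.48 to 0.23. Between vectors psbE ran from -0.10 to 0.024, psbJ from -0.15 to 0.018, psbK from -0.21 to 0.041 and psbI from -0.19 to 0.024. For day they ran from -0.13 to 0.36, -0.11 to 0.39, -0.12 to 0.37, -0.13 to 0.33, -0.00033 to 0.66 and -0.032 to 0.59.

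Apart from the labelled day, which all libraries numbered 1 share, the labels give no pairing by replicate number. Of 9 correlations of the deviations of libraries with the same number, 4 were over 0.1 (-0.524 to 0.719). The highest, 0.719, was that of pGWB2 replicate 1 with pMDC32 replicate 1, both labelled 2 dpi. P19 replicate 1 correlated with these at 0.088 and -0.197. In all, 1 library correlated best with its own number in both other groups. With the replicate number as a block 0 of the 6 were called in each comparison of groups, with psbE at -0.23 for pGWB2 and -0.26 for pMDC32. Scaling moved the median of all rows to -0.18 (upper quartile) and 0.11 (library totals) for pMDC32 and to 0.44 (library totals) for the interaction. Each group has 3 libraries, and no alternative varied the depth.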
